A study of Mus musculus with 89 samples.

Results

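Villus pairs were set against fully dissociated single enterocytes of the mouse jejunum, the middle stretch of the small intestine. A pair is a clump of 2 cells that stayed attached when the epithelium was loosened, sorted by its 4n DNA content, while single cells came from a suspension taken further apart. Wells were chosen by their measured contents. The apolipoprotein genes Apoa1, Apoa4 and Apob had to supply at least 1% of the unique molecular identifiers (UMIs, which count mRNA molecules), and Muc2, Dclk1, Trpm5, Chga, Chgb, Cd3g, Cd7 and Gzma together at most 1 UMI. Mitochondrial genes could supply up to 30% of the UMIs. A pair needed more than 500 UMIs and 200 or more genes, and a single cell between 500 and 7000 UMIs and between 200 and 1500 genes. The choice left 1587 of 10250 wells of pairs and 491 of 16850 wells of single cells, out of 34012 wells in the series. Near the limit on apolipoproteins, 149 pairs and 46 single cells lay inside by less than 0.25 percentage points, and 177 pairs and 52 single cells that otherwise qualified lay outside by no more than that.

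Enterocytes are the absorptive cells of the intestine. They are born in the crypts, move up the villus for a few days and are shed at its tip, changing their expression on the way, and they package dietary fat with apolipoproteins into chylomicrons. Neighbouring enterocytes are held together by tight junctions, adherens junctions and desmosomes. Loosening the epithelium takes away the calcium these contacts need, and dissociation is known in many tissues to switch on immediate early and heat shock genes.

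All animals were untreated male C57BL/6 mice on regular chow with no altered gene. The labels gave an age of 3 months, except for 3 plates of single cells of mouse 2, which were labelled 4 months. Pairs came from mice 1 to 5, with 249, 600, 670, 53 and 15 wells, and single cells from mice 1 to 4, with 158, 125, 44 and 164 wells. Mice are numbered separately for clumps and for cells, and the sources used here do not say whether any animal gave both. Both preparations used EDTA without an enzyme, the single cells with smaller pieces of tissue, a longer warm incubation and repeated shaking. Clumps were stained with Hoechst in the presence of reserpine and with Zombie Green for dead cells, and single cells with antibodies and DAPI. Among the single cells, 241 came from plates labelled Epcam, 78 from plates whose label names CD45 or CD54 together with Epcam, 1 from a CD24 plate and 171 from plates that name no gate, among them all 158 of mouse 1. Dissociation, stain, sort, sequencing table and animals changed together with the kind of sample and cannot be told apart, and no value below assigns a difference to any of them. More RNA per cell and more cells per well cannot be told apart in a pair either. Larger villus clumps of mice 1, 4 and 5, with 87, 85 and 118 wells above 4n that met the limits set for pairs, are quoted for their values only.

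The sum over the wells of each mouse was the unit of comparison. Pairs held 487514, 1043305, 2166784, 54126 and 13104 UMIs in mice 1 to 5, and single cells 436262, 352456, 143656 and 463508 UMIs in mice 1 to 4. Pairs of mouse 4, and those of mouse 5 above all, were therefore the least precise: 1 UMI was worth 76.3 counts per 1000000 UMIs (CPM) in mouse 5, and a count of 0 there allowed a level of up to 229 CPM, against 55.4 CPM in pairs of mouse 4 and 1.38 to 20.9 CPM in the other sums. These limits cover counting error only.

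The enterocyte label held in every sum. Besides the genes of the rule, Fabp2, a fatty acid binding protein of enterocytes, stood at 7944 to 26759 CPM in pairs and 2854 to 8499 CPM in single cells. The microvillus protein Vil1 was found at 1016 to 2841 CPM and 1167 to 1553 CPM, the surface marker Epcam at 499 to 1944 CPM and 1219 to 1704 CPM, the sugar-splitting enzyme Sis at 229 to 2466 CPM and 243 to 1692 CPM, and the intestinal phosphatase Alpi at 591 to 1679 CPM and 688 to 1100 CPM. None of these markers was absent from a mouse.

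The wells themselves differed by kind of sample, in measures that the rule limits and that are therefore given without a test. Median UMIs per well were 1550, 1369, 2031.5, 855 and 721 in pairs of mice 1 to 5, and 2257, 2547, 3439.5 and 2393 in single cells of mice 1 to 4. A well with a pair thus held fewer molecules than a well with a single cell in every mouse. With each well thinned to 500 UMIs, pairs showed a median of 267, 253, 294.5, 233 and 212 genes, and single cells 151.5, 205, 208 and 201.5 genes. Every sum of pairs lay above every sum of single cells in that measure.

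The median mitochondrial share of a well was 7.14, 6.22, 6.99, 19.3 and 17.6% in pairs and 26.1, 24.4, 24.2 and 24.7% in single cells. Pairs of mice 4 and 5 thus lay much nearer to the single cells than those of mice 1 to 3. The limit of 30% cut into the single cells and hardly into the pairs: 1067 further wells of single cells met every other condition, so the kept cells are those below the limit, while only 31 further wells of pairs did. Among wells that passed the limits on UMIs, genes and mitochondrial share, the rule kept 52.2, 65.4, 46.9, 12.7 and 28.8% of pairs and 54.3, 9.69, 4.56 and 30.04% of single cells. Landmark genes of enterocytes placed 31.7, 42.3, 37.2, 5.66 and 40.0% of the pairs and 77.8, 45.6, 40.9 and 42.7% of the single cells at the villus tip. Single cells of mouse 1 and pairs of mouse 4 stood apart from the other mice in position.

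**Figure D1:**
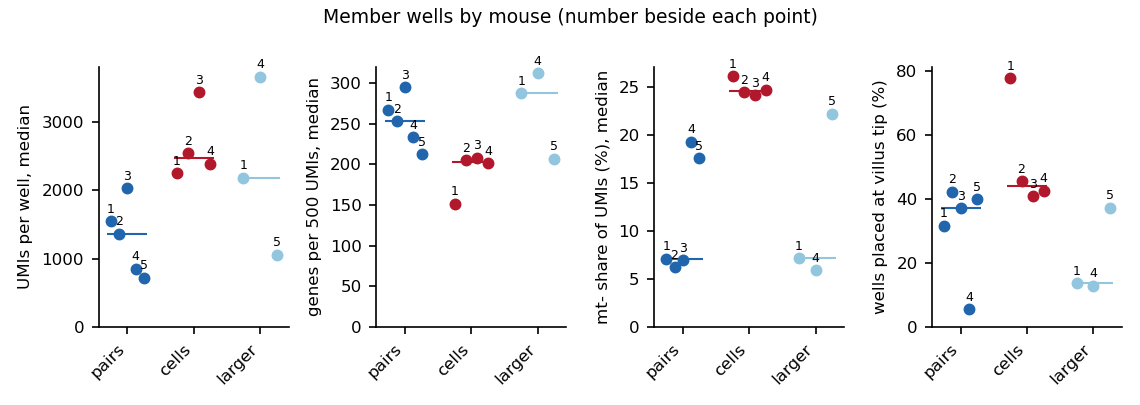
The plots of well measures show, from left to right, the median UMIs per well, the median number of genes after thinning to 500 UMIs, the median mitochondrial share of UMIs in percent and the percentage of wells placed at the villus tip. Each point is a mouse, numbered beside it, each line is the median over the mice, and the columns are pairs, single cells and larger villus clumps; pairs lie below single cells in UMIs and in mitochondrial share and above them in genes per 500 UMIs.

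A large part of the UMIs did not come from the mRNA of ordinary genes. Gm42418, a predicted gene that overlaps ribosomal RNA sequence on chromosome 17, gave 7.85, 18.0, 2.45, 15.99 and 20.5% of the UMIs in pairs of mice 1 to 5 and 27.9, 19.6, 13.0 and 14.3% in single cells of mice 1 to 4. Genes of the mitochondrial genome gave 8.84, 7.69, 8.08, 20.5 and 17.1% in pairs and 25.5, 23.6, 23.4 and 24.2% in single cells, most of it ribosomal RNA in the single cells (18.7 to 20.5% of all UMIs). The remaining genes, with nuclear copies of mitochondrial genes also left out, made up 69.7, 68.9, 79.3, 54.9 and 54.4% of the UMIs in pairs and 32.1, 46.2, 50.7 and 47.5% in single cells. The groups did not overlap in this remainder, and single cells of mouse 1 had the least of it. The mitochondrial limit of the rule bears on these shares, so they are a description.

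A set of 8 nuclear copies of mitochondrial genes, listed by the annotation as pseudogenes on chromosomes 1 and 2, took a further 5.37 to 13.6% of UMIs in pairs and 10.5 to 14.5% in single cells. Their sequence leaves their origin undecided: every stretch of 66 bases of Gm28437, Gm10925, Gm28661 and Gm28439 also occurs in the mitochondrial genes mt-Co3, mt-Atp6, mt-Co2 and mt-Nd4, as do 98.9% of the stretches of Gm28438 in mt-Nd3 and 97.0% of those of Gm29216 in mt-Co1. The copies on chromosome 2 have drifted further, with 26.7% shared stretches in Gm13341 and 20.5% in Gm13340. To show the difference, a stretch of mt-Co2 (GRCm38, chrM:7463-7492, plus strand) is printed with the matching stretch of Gm28661 (chr1:24615086-24615115, minus strand) and of Gm13341 (chr2:22587495-22587524, minus strand), each 5′ to 3′ from the reference genome, with capitals where a copy differs from mt-Co2.
mt-Co2: cgtatattaatttcatctgaagacgtcctc
Gm28661: cgtatattaatttcatctgaagacgtcctc
Gm13341: cgtatattaatCtcatctgaagaTgtTctc
The stretch of Gm28661 could not be told from mt-Co2, and that of Gm13341 differed at 3 of its 30 bases.

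**Figure D2:**
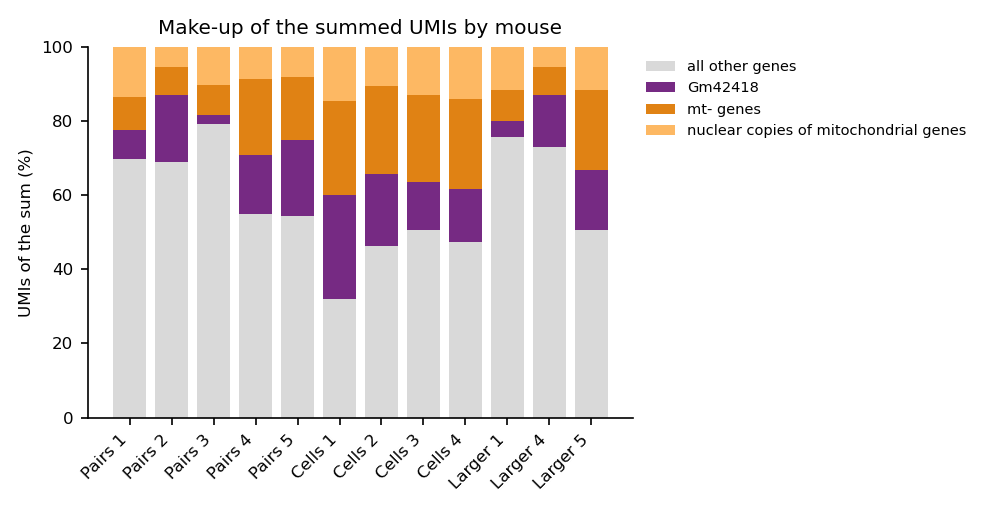
The plot of the make-up of UMIs shows, for the sum of each mouse, the percentage of UMIs from Gm42418, from mitochondrial (mt-) genes, from 8 nuclear copies of mitochondrial genes and from all other genes, in stacked bars that add up to 100%. Larger stands for larger villus clumps; the grey part lies between 54.4 and 79.3% in pairs and between 32.1 and 50.7% in single cells.

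Because so much of each sum was taken up by a few RNAs, a level in CPM and a tested change are different quantities here. CPM are parts of all UMIs of a sum. The log2 changes below are pairs minus single cells from edgeR after TMM scaling, which sets the bulk of genes to no change, with factors of 1.02 to 1.51 for pairs and 0.52 to 0.88 for single cells. A gene can therefore have a higher CPM in pairs with a log2 change near or below 0. With plain totals in place of TMM, the median log2 change over all genes moved from −0.06 to 0.62, a scale on which nearly every list moves up, and that value is named below as "on plain totals".

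Of 3741 genes tested, 26 differed between villus pairs and single enterocytes (edgeR quasi-likelihood test on the sums, Benjamini-Hochberg adjusted p below 0.05), which is 0.695% of the genes. Of these, 14 were higher in pairs (0.374%) and 12 higher in single cells (0.321%). The split between directions moved with the scaling and the test: 13 were higher and 16 lower in pairs with DESeq2 size factors in edgeR, 10 and 15 by the DESeq2 Wald test, and 249 and 4 on plain totals. DESeq2 kept 15 of the 26 calls, and the 11 it lost included Plb1, Tnrc6b, Tmigd1, Mia2, Fam83b, Rc3h1, Aff4 and Gm26917 (DESeq2 adjusted p of 0.0554 to 0.411). The limits on wells also moved the counts, to 134 and 246 with no limit on the mitochondrial share, 19 and 41 at an apolipoprotein share of at least 2% and 16 and 34 with over 1000 UMIs in both groups, and with no filter on low counts they were 62 and 36. The counts also rested on single mice: without pairs of mouse 1 they were 5 and 4, without pairs of mouse 3 they were 4 and 2, without pairs of mouse 4 they were 8 and 12, without pairs of mouse 5 they were 3 and 4, and without single cells of mouse 1 or of mouse 4 they were 12 and 7 or 10 and 7. The median SE of a log2 change was 0.41 and the smallest change called was 1.61. Of 342 genes with a change above 1 in size, 26 were called, so real differences of that size or less may have been missed. The size that could be detected varied with the SE of each gene and was not tested. Before adjustment, 511 genes (13.7%) had p below 0.05, 221 higher in pairs and 290 higher in single cells. In CPM, the levels of pairs lay wholly above those of single cells for 306 genes (8.18%) and wholly below for 9 (0.241%).

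**Figure D3:**
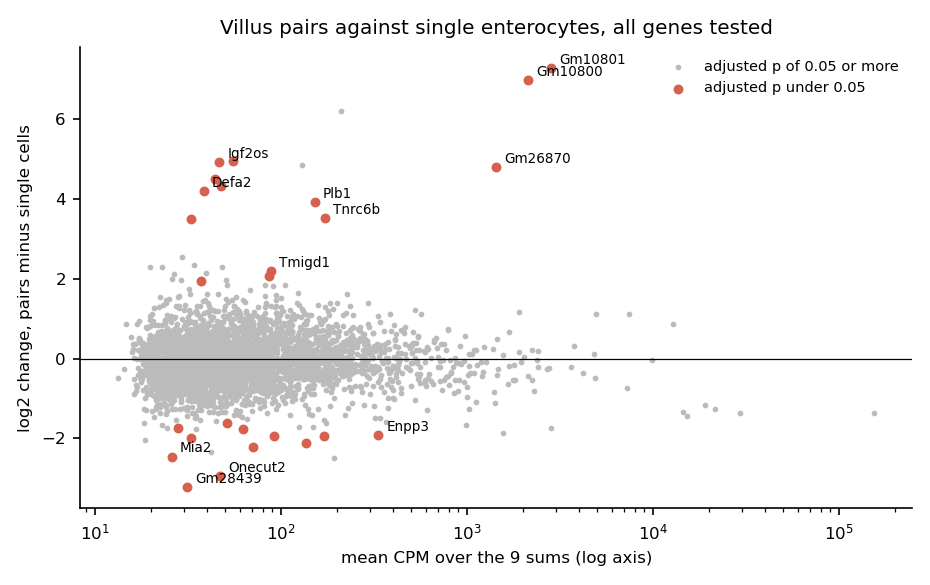
The plot of all genes tested shows the mean CPM over the 9 sums on a log axis against the log2 change of pairs minus single cells, with the 26 genes below an adjusted p of 0.05 in red. Gm10801 and Gm10800 have the highest changes, at 7.29 and 6.98, and Gm28439 and Onecut2 the lowest, at −3.23 and −2.94.

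Of the 26 genes, only Onecut2 and Gm28439 were called whichever of the 9 mice was left out. Onecut2, a homeobox transcription factor, stood at 12.3, 28.8, 22.2, 0 and 0 CPM in pairs of mice 1 to 5 and at 112, 79.4, 55.7 and 114 CPM in single cells of mice 1 to 4. No pair sum reached the lowest single-cell sum, and larger clumps, at 4.30, 18.2 and 19.5 CPM, lay with the pairs. Its log2 change was −2.94 ± 0.44 (SE, edgeR adjusted p = 0.000432), with −3.30 to −2.60 without each mouse. Gm28439, whose every stretch occurs in mt-Nd4, stood at 10.3, 4.79, 16.6, 0 and 0 CPM in pairs and 41.3, 42.6, 69.6 and 97.1 CPM in single cells, again without overlap (−3.23 ± 0.44, edgeR adjusted p = 0.000265). Its reads cannot be told from those of mitochondrial RNA, which the rule limits. For both genes the counts of 0 in pairs of mice 4 and 5 allow up to 55.4 and 229 CPM, so the gap rests mainly on pairs of mice 1 to 3.

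A further 5 genes with plain names were higher in single cells. Enpp3, an ectoenzyme that splits extracellular nucleotides and a landmark of the villus tip, stood at 115, 466, 217, 37.0 and 153 CPM in pairs and at 532, 392, 619.5 and 464 CPM in single cells. Pairs of mouse 2 overlapped the single cells. Its log2 change was −1.92 ± 0.45 (edgeR adjusted p = 0.0410), and without pairs of mouse 1, 3, 4 or 5 the adjusted p was 0.162, 0.157, 0.0536 or 0.145, and without single cells of mouse 1 or 4 it was 0.134 or 0.0539. Mia2, which helps load large cargo such as chylomicrons at exit sites of the endoplasmic reticulum, had a log2 change of −2.46, Fam83b −1.98, Rc3h1, an RNA-binding ubiquitin ligase, −1.74, and Aff4, a part of the super elongation complex, −1.61, all lower in pairs. Rc3h1 was at 0 to 28.7 CPM in pairs and 39.7 to 53.9 CPM in single cells, without overlap, whereas the other 3 overlapped. The counts of 0 for Rc3h1 in pairs of mice 4 and 5 carry the limit given for Onecut2. The call on each depended on several mice. The adjusted p without pairs of mouse 1, 3 or 5 was 0.153, 0.212 and 0.140 for Fam83b, 0.0668, 0.212 and 0.107 for Rc3h1, and 0.176, 0.166 and 0.117 for Aff4. Without single cells of mouse 1 or 4 it was 0.134 and 0.0516, 0.119 and 0.0727, and 0.124 and 0.0958 for the same genes, and without pairs of mouse 2 it was 0.0653 for Rc3h1 and 0.0759 for Aff4, which also lost its call without single cells of mouse 2 (0.0663). Mia2 had 0.143 without pairs of mouse 5, 0.101 and 0.0665 without single cells of mouse 1 or 2, and was under the filter on low counts without pairs of mouse 1, 2 or 3 or single cells of mouse 4.

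Among genes higher in pairs, Plb1, a phospholipase of the brush border that digests dietary lipid, stood at 472, 39.3, 286, 0 and 534 CPM in pairs and at 0, 36.9, 0 and 0 CPM in single cells. Larger clumps held 344, 109 and 201 CPM. The fitted change was 3.92 ± 0.85 (edgeR adjusted p = 0.0256), and the adjusted p was 0.126, 0.0836 and 0.148 without pairs of mouse 1, 3 or 5 and 0.0902 and 0.0619 without single cells of mouse 1 or 4. Tmigd1, an adhesion protein of the immunoglobulin family, stood at 236, 93.9, 333, 37.0 and 0 CPM in pairs and at 4.58, 39.7, 13.9 and 36.7 CPM in single cells (2.20 ± 0.52, edgeR adjusted p = 0.0416). Its adjusted p was 0.212 without pairs of mouse 3, 0.153 and 0.117 without pairs of mouse 1 or 5, and 0.0619 to 0.134 without each mouse of single cells. The emptiest wells were taken as the 4 plate positions whose median UMIs over the clump plates were lowest. Plb1 had 0 and Tmigd1 had 1 of the 29637 UMIs there.

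Tnrc6b, a partner of Argonaute in silencing by microRNAs, was uneven among the pairs, at 609, 722, 138, 0 and 0 CPM, against 6.88, 28.4, 27.8 and 21.6 CPM in single cells. Larger clumps showed the same unevenness, with 701 CPM in mouse 1 and 20.8 and 13.0 CPM in mice 4 and 5. Its change was 3.52 ± 0.69 (edgeR adjusted p = 0.0106, and 0.0544 without pairs of mouse 5). At the 4 emptiest positions of the clump plates Tnrc6b was at 742 CPM (22 of 29637 UMIs), above each sum of pairs but close to the 722 CPM in pairs of mouse 2. In clump wells that did not meet the quality limits it was at 469 CPM. Igf2os, the antisense gene at Igf2, stood at 98.5, 188, 87.2, 37.0 and 0 CPM in pairs and 0 to 4.31 CPM in single cells (4.92 ± 0.69, edgeR adjusted p = 0.000265). The counting was set to the strandedness of the library, per the study's methods. At the 4 emptiest positions of the clump plates Igf2os had 3 of 29637 UMIs (101 CPM), and it was at 204 CPM in the clump wells below quality. The part of such RNA in the levels of pairs was not tested for either gene. Igf2os met the threshold without each mouse of single cells and without pairs of mouse 5, and was under the filter on low counts without any other mouse of pairs.

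Defa2, a defensin of Paneth cells, was at 88.2, 6.71, 129, 37.0 and 76.3 CPM in pairs and at 0 to 5.67 CPM in single cells (4.21 ± 0.90, edgeR adjusted p = 0.0244). The adjusted p was 0.0558 and 0.0678 without single cells of mouse 1 or 4, and the gene was under the filter without pairs of mouse 1, 3, 4 or 5. All of its 66-base stretches also occur in other genes, 81.7% of them in Defa33, so its counts may be split among defensins. In clump wells of good quality outside the apolipoprotein rule Defa2 was at 2433 CPM, and at the 4 emptiest positions of the clump plates at 472 CPM (14 UMIs). The part of such RNA in the level of pairs was not tested.

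The greatest changes were in predicted genes. Gm10801 stood at 222, 28.8, 365, 11750.4 and 12973 CPM in pairs of mice 1 to 5 and at 14.2 to 22.9 CPM in single cells (7.29 ± 1.28, edgeR adjusted p = 0.00403, and 0.107 without pairs of mouse 5). Its neighbour Gm10800 followed with 234, 18.2, 283, 8517 and 10149.6 CPM, against 6.96 to 32.1 CPM in single cells (6.98 ± 1.29, edgeR adjusted p = 0.00572, and 0.134 without pairs of mouse 5). Gm26870 stood at 162, 49.8, 225, 5727 and 6563 CPM, against 25.9 to 97.5 CPM in single cells (4.80 ± 1.04, edgeR adjusted p = 0.0255, and 0.152 without pairs of mouse 5). Pairs of mouse 2 overlapped the single cells in Gm10800 and Gm26870. Without pairs of mouse 4 or single cells of mouse 1, 2 or 4 the adjusted p of Gm26870 was 0.0574 to 0.0624. All 3 were highest in the thinnest sums, the pairs of mice 4 and 5, and in larger clumps of mouse 5. At the 4 emptiest positions of the clump plates they reached 18625, 14610.1 and 10561 CPM, above any sum of pairs. Of the 14 genes called higher in pairs, 10 were higher at these positions than in every sum of pairs, among them Gm42636 at 607 CPM, Gm10051 at 337, Gm15308 and Gm26873 at 304 and Gm6394 at 269.9 CPM. The levels from Gm42636 to Gm6394 rest on 18, 10, 9, 9 and 8 UMIs. With the background of the emptiest wells subtracted, 22 of the 26 genes were still called. These were 10 of the 14 higher in pairs and all 12 higher in single cells, so the calls lost were all of genes higher in pairs. In the corresponding positions of the single-cell plates Gm10801, Gm10800 and Gm26870 had 2, 3 and 2 of 9262 UMIs. Scaled to CPM, these few UMIs also lay above every sum of single cells.

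In all, 15 of the 26 called genes had names of predicted genes, pseudogenes or RIKEN clones, 9 higher in pairs and 6 higher in single cells. The RIKEN clone, 4932438A13Rik, is annotated as protein-coding and was higher in single cells (log2 change −1.94, edgeR adjusted p = 0.0416). Its call was lost in 6 of the 9 fits without 1 mouse. Rpl13a-ps1, a processed copy of a ribosomal protein gene, was at 18.2 to 305 CPM in pairs and 0 to 2.29 CPM in single cells, and Gm10051 at 37.0 to 189 CPM and 19.9 to 23.7 CPM. Rpl13a-ps1 had an adjusted p of 0.0619 without single cells of mouse 4 and was under the filter without pairs of mouse 1, 3, 4 or 5, and Gm10051 had 0.0773 without pairs of mouse 3 and 0.0663 and 0.0574 without single cells of mouse 2 or 4. For Gm10051, 81.1% of the stretches occur in Rpl28-ps1 too, so its counts may belong to relatives. Gm26917, which lies beside Gm42418 on chromosome 17, was at 11.5 to 153 CPM in pairs and 119 to 291 CPM in single cells (−2.12 ± 0.51, edgeR adjusted p = 0.0457, 0.171, 0.161 and 0.145 without pairs of mouse 1, 3 or 5, and 0.0683 and 0.0961 without single cells of mouse 1 or 4). Its neighbour Gm42418 overlapped between the groups and had a change of −1.36 (edgeR adjusted p = 0.234).

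The gene groups that follow were listed by function, and 410 of their genes were tested. Of these, 0 were called higher in pairs and 2 higher in single cells, Enpp3 and Gm26917, against 14 and 12 of all 3741 genes. Their median log2 change was −0.10 against −0.06. At an unadjusted p below 0.05, 84 genes of the lists passed, 33 higher in pairs and 51 higher in single cells, and DESeq2 called 4. A median below is a description of the list beside that of all genes, with no test of the list.

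The lists of position along the villus lay on opposite sides. All 26 villus tip landmarks had a log2 change below 0, from −1.92 to −0.26 with a median of −0.93, 1 of them called (Enpp3), against 0.321% of all genes, and 14 with an unadjusted p below 0.05, against 7.75% of all genes that were so in this direction. Slc28a2, a nucleoside transporter of tip enterocytes, stood at 203, 441, 331, 55.4 and 229 CPM in pairs and 371, 386, 814 and 492 CPM in single cells (−1.60 ± 0.40, edgeR adjusted p = 0.0599). Krt20, a keratin of differentiated enterocytes, was at 2404, 3372, 4172, 443 and 763 CPM and 2056, 2483, 2666 and 2384 CPM (−0.81, edgeR adjusted p = 0.458). The groups overlapped in both, with pairs of mouse 4 lowest.

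The median of the tip list was −0.13 among wells placed in the mid-villus, −0.40 among wells placed at the tip, −0.65 with pairs of mice 1 to 3 only and −0.15 on plain totals, where 10 of 26 genes were above 0. Those placements used these same landmarks. As a part of the remaining genes alone, scaled to the same total, the list summed to 14464, 21329, 17748, 4844 and 14865 in pairs and 35099, 28415, 31867 and 25675 in single cells, without overlap.

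The crypt landmarks, here 21 ribosomal protein genes and Ppia, lay the other way. Landmarks, which include these genes, placed 5.22, 3.17, 4.48, 26.4 and 20.0% of the pairs in the crypt and 0.633, 0, 2.27 and 0.61% of the single cells, without overlap and most in pairs of mice 4 and 5. The part of these wells in the list's change was not tested. Of the 22, 21 had a log2 change above 0 and 0 were called, with a median of 0.94, and 10 had CPM in pairs wholly above those of single cells, against 8.18% of all genes. Rpl21 stood at 154, 129, 167, 351 and 153 CPM in pairs and 27.5, 56.7, 34.8 and 56.1 CPM in single cells (1.35 ± 0.40, edgeR adjusted p = 0.120). Rpl19 stood at 166, 159, 159, 259 and 229 CPM and 25.2, 59.6, 90.5 and 47.5 CPM (1.14 ± 0.38, edgeR adjusted p = 0.157). In neither gene did the groups overlap. The list's median was 0.42 among mid-villus wells, 0.66 without single cells of mouse 1 and 1.56 on plain totals.

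The 9 tested mid-villus landmarks had a median of −0.24 (0.38 on plain totals), 4 above 0 and 5 below, and 0 were called. Their sum was high in pairs, at 15949 to 34627 CPM against 4722 to 14757 CPM in single cells, and as a part of the remaining genes alone, in the same scale, it was 29309 to 43649 against 14717 to 29132, apart in both scales. Fabp2, a member of this list, stood at 23751, 18527, 26759, 7944 and 13584 CPM in pairs and at 2854, 7371, 8499 and 6485 CPM in single cells (0.87 ± 0.41, edgeR adjusted p = 0.350). Only pairs of mouse 4 overlapped the single cells. The sums of the list in pairs were 28621, 27945, 34627, 17182 and 15949 CPM, so Fabp2 was a large part of them. Whether the other members lay apart without it was not computed.

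Genes of the respiratory chain that are encoded in the nucleus lay on the same side as the ribosomal proteins. Of 72 tested, 65 had a log2 change above 0, 0 were called and the median was 0.43. With an unadjusted p below 0.05, 11 were higher in pairs, against 5.91% of all genes, and 17 had CPM in pairs wholly above those of single cells, against 8.18% of all genes. Ndufb4, a subunit of complex I, was at 103, 94.9, 148, 185 and 76.3 CPM in pairs and 9.17, 36.9, 41.8 and 43.1 CPM in single cells (1.31 ± 0.40, edgeR adjusted p = 0.123). Ndufb2 was at 98.5, 133, 125, 259 and 76.3 CPM and 22.9, 68.1, 41.8 and 25.9 CPM (1.14 ± 0.42, edgeR adjusted p = 0.218). Neither gene overlapped between the groups. Of 11 coding genes of the mitochondrion, which the rule limits, 3 (mt-Co1, mt-Nd4l and mt-Nd5) had pairs wholly below single cells and 8 overlapped. Among all genes tested, 0.241% had pairs wholly below. Levels of mt-Co1 were 1526 to 3136 CPM in pairs and 4963 to 8397 CPM in single cells, and those of mt-Cytb 4650 to 22817 CPM and 9323 to 12300 CPM. The nuclear list stood at 0.13 among mid-villus wells and at −0.05 with the 10 genes left when wells above 15% mitochondrial UMIs were left out.

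Among the apolipoproteins that define the wells, Apob, the structural protein of chylomicrons, stood at 720.0, 1379, 983, 333 and 458 CPM in pairs and 2666, 2346, 2555 and 2557 CPM in single cells. No pair sum came near the single cells. Apoa1 stood instead at 9939.8 to 22424 CPM in pairs and 12671 to 15521 CPM in single cells, and Apoa4 at 5894 to 16226 CPM and 9763 to 15147 CPM, with overlap in both. The rule set a minimum for their summed share and nothing on its division among the 3 genes. Summed over wells, the share ran from 1.62 to 4.00% in pairs and from 2.705 to 3.07% in single cells. Of the UMIs of the remaining genes alone it was 4.53, 5.81, 4.20, 2.94 and 5.64% in pairs and 9.31, 5.85, 6.07 and 5.86% in single cells, without overlap. No test was run on these genes.

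The other absorptive lists had 0 called genes each. Lipid absorption had a median of −0.34 over 26 genes (0.31 on plain totals), sugar, amino acid and peptide transport 0.02 over 18 (−0.01 with DESeq2 size factors, 0.62 on plain totals), brush border hydrolases −0.18 over 17 (0.48 on plain totals) and xenobiotic metabolism −0.16 over 30 (0.42 on plain totals). Acsl3, which activates fatty acids, was at 36.9, 38.3, 28.2, 0 and 0 CPM in pairs and 57.3, 68.1, 34.8 and 45.3 CPM in single cells (−1.49 ± 0.42, edgeR adjusted p = 0.0940). Xpnpep2, a peptidase of the brush border, was at 193, 146, 206, 37.0 and 153 CPM and 13.8, 48.2, 48.7 and 58.3 CPM (1.29 ± 0.39, edgeR adjusted p = 0.123). The groups overlapped in both, in Xpnpep2 by pairs of mouse 4 only.

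The antimicrobial list, lectins of the Reg3 family with Lypd8 and related secreted proteins, had 0 of 9 called and a median of 0.35, which was 0.05 without single cells of mouse 1. Its summed level did not overlap, at 15981 to 35675 CPM in pairs and 4958 to 10813 CPM in single cells, nor did it as a part of the remaining genes alone, in the same scale, at 26727 to 44970 and 15453 to 22776. Reg3b, a lectin that binds bacteria, stood at 7708, 12000.3, 16918, 7353 and 10302 CPM in pairs and 1591, 2859.9, 3209 and 5057 CPM in single cells, without overlap (1.11 ± 0.40, edgeR adjusted p = 0.199). Guca2a, the hormone guanylin, was at 92.4 to 503 CPM and 20.9 to 175 CPM (1.31 ± 0.45, edgeR adjusted p = 0.177).

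For a comparison of attached with separated cells, genes of cell contacts are of direct interest, and the 3 contact lists had 0 called genes. Adherens junctions and desmosomes had a median of −0.71 over 13 genes (0.09 on plain totals), tight junctions −0.52 over 17 (0.21 on plain totals) and gap junctions with basal adhesion −0.41 over 10 (0.37 on plain totals). With an unadjusted p below 0.05 and higher in single cells were 4, 6 and 1 genes of these lists, against 7.75% of all genes, and 1 tight junction gene was so in pairs. As a part of the remaining genes alone, adherens junctions and desmosomes summed to 3095 to 6396 in pairs and 7393 to 8759 in single cells, and tight junctions to 2287 to 3853 and 4370 to 5294, both without overlap, whereas gap junctions with basal adhesion overlapped. In CPM both sums overlapped, at 1699.7 to 5074 against 2810.2 to 3972 and at 1256 to 2801 against 1699 to 2409. Dsp, the desmosomal plaque protein, stood at 127, 200.3, 226, 0 and 0 CPM in pairs and 181, 253, 160.1 and 280.5 CPM in single cells (−1.27 ± 0.43, edgeR adjusted p = 0.165). Cldn4, a claudin of tight junctions, was at 20.5, 30.7, 59.997, 18.5 and 0 CPM and 34.4, 79.4, 76.6 and 49.6 CPM (−1.35 ± 0.39, edgeR adjusted p = 0.111). Pairs of mice 4 and 5 were the low ones in both, with few UMIs behind them. Lama3, a laminin chain of the basement membrane, was at 0 to 62.3 CPM and 59.6 to 128 CPM (−1.42 ± 0.38, edgeR adjusted p = 0.0788). Microvillus genes had a median of −0.12 over 21 (0.58 on plain totals) and actin and keratin genes −0.16 over 19 (0.58 on plain totals), with 0 called.

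**Figure D4:**
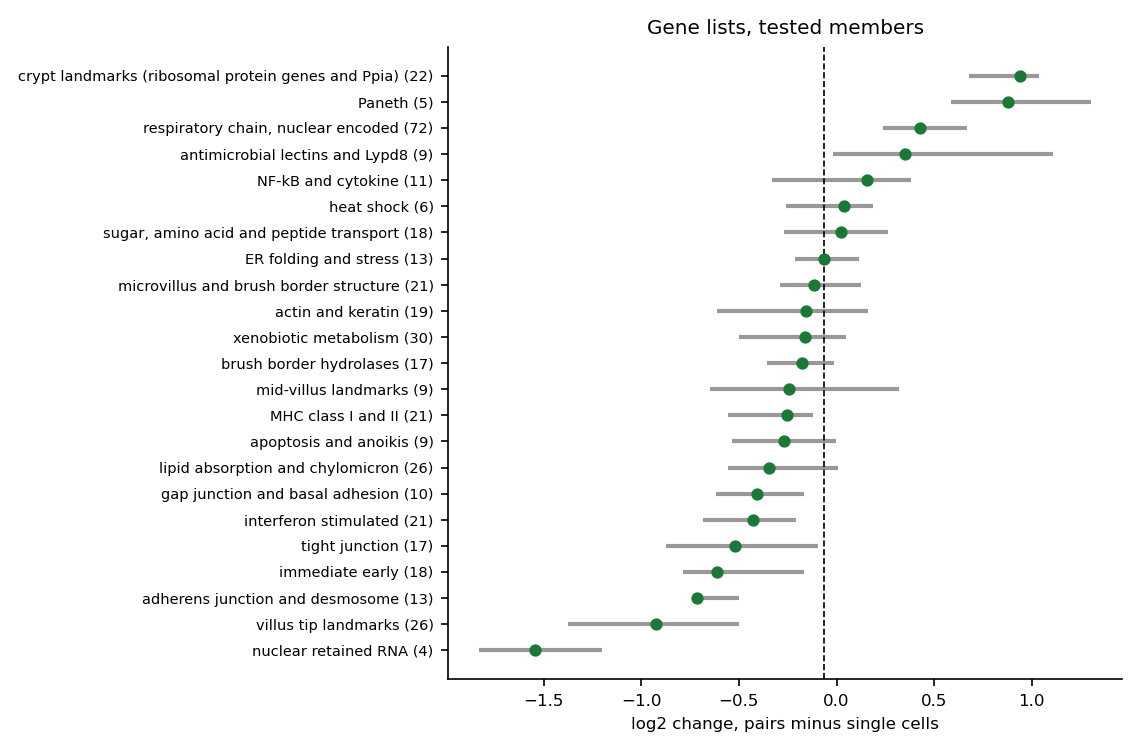
The plot of gene lists shows the median log2 change of pairs minus single cells (point) and the range from the lower to the upper quartile (bar) over the tested members of each list with at least 4 of them, their number in brackets. The dashed line is the median of all 3741 genes, −0.06; villus tip landmarks stand at −0.93 and crypt landmarks at 0.94.

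Immediate early genes, which answer stress within minutes, had 0 of 18 called, 16 below 0 and a median of −0.61 (0.13 on plain totals), and 6 had an unadjusted p below 0.05 and were higher in single cells, against 7.75% of all genes. Their sum overlapped in CPM, at 998 to 3118 in pairs and 1896 to 2449 in single cells, but not as a part of the remaining genes alone, at 1816 to 3930 and 4205 to 5908. Jun stood at 127, 173, 125, 37.0 and 76.3 CPM in pairs and 209, 244, 146 and 188 CPM in single cells, where only pairs of mouse 2 reached into the range of the single cells (−1.41 ± 0.37, edgeR adjusted p = 0.0723). Fos, its partner in the AP-1 factor, stood at 287, 333, 362, 166 and 76.3 CPM in pairs and 135, 233, 174 and 250.3 CPM in single cells (−0.18 ± 0.34, edgeR adjusted p = 0.870). Pairs of mice 1 to 3 lay above all single cells in Fos and those of mouse 5 below. Its log2 change turned to 0.25 with wells thinned to 500 UMIs, 0.73 among mid-villus wells, 0.02 with pairs of mice 1 to 3 and 0.48 on plain totals, so no direction is given for it. Klf6 was at 153 to 312 CPM and 259 to 340.5 CPM (−1.12, edgeR adjusted p = 0.117).

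To see whether such RNA came from many wells, wells were thinned to 500 UMIs and those with at least 1 UMI of a gene were counted. Fos was seen in 13.3, 15.8, 16.6, 7.55 and 6.67% of the pairs and 6.96, 5.60, 9.09 and 11.6% of the single cells, a difference of 3.66 percentage points (two-sided exact permutation test over mice, p = 0.206, adjusted over 5 genes 0.516). Jun was seen in 6.43, 7.67, 6.57, 0 and 0% of the pairs and 7.59, 10.4, 9.09 and 6.10% of the single cells (−4.16 points, exact permutation p = 0.127, adjusted 0.516). The 0 of 53 and 0 of 15 wells in pairs of mice 4 and 5 allow a share of up to 5.66% and 20.0%. Atf3, Egr1 and Hspa1a differed by −0.579, −0.543 and 0.0632 points, with adjusted exact permutation p of 0.659, 0.556 and 0.556. Among mid-villus wells the Fos share was 8.61 points higher in pairs (exact permutation p = 0.0238, adjusted 0.119). Pairs of mouse 5 had 6 wells there. Egr1 was seen there in pairs of mouse 2 only (0.612% of wells), with all single cells at 0. At 1000 UMIs per well, pairs of mice 4 and 5 kept 19 and 1 wells, and pairs of mice 1 to 3 kept 176, 420 and 530. Fos was seen in 22.7, 22.6 and 29.1% of the wells in pairs of mice 1 to 3, above the 10.1 to 20.0% of single cells, and in 5.26 and 0% in mice 4 and 5, so the mean over mice, 0.167 points lower in pairs, rests on the thin mice. Egr1 was 1.88 points lower in pairs (exact permutation p = 0.0238, adjusted 0.119), with 0% in the same thin mice and 0.755 to 1.70% in mice 1 to 3 against 1.43 to 5.13% in single cells. With 5 mice against 4, the smallest p this test can give is 0.00794.

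The other stress lists also had 0 called genes. Heat shock had a median of 0.04 over 6 genes (−0.01 with DESeq2 size factors, 0.73 on plain totals), folding and stress of the endoplasmic reticulum −0.07 over 13 (0.03 by DESeq2, 0.57 on plain totals), NF-kB and cytokines 0.15 over 11, and apoptosis and anoikis −0.27 over 9 (0.48 on plain totals). Interferon-stimulated genes had a median of −0.43 over 21 (0.29 on plain totals) and MHC genes −0.26 over 21 (0.43 on plain totals). H2-K1, an MHC class I heavy chain, was at 1188, 961, 1333, 351 and 305 CPM in pairs and 1167, 1104, 1824 and 951 CPM in single cells (−1.26 ± 0.42, edgeR adjusted p = 0.164). The groups overlapped in it.

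The list of RNAs kept in the nucleus had 4 tested genes, all below 0: Malat1, Neat1, Gm42418 and its neighbour Gm26917, the one called. Gm42418 overlaps ribosomal RNA sequence, as given above, so the name of the list does not describe it. The median was −1.55, and −0.70 on plain totals with 1 above 0. Malat1 stood at 3423, 3515, 2162, 277 and 763 CPM in pairs and 6049, 3518, 3355 and 2332 CPM in single cells (−1.74 ± 0.54, edgeR adjusted p = 0.133). Pairs of mice 1 and 2 overlapped the single cells, and without wells above 15% mitochondrial UMIs its change was 0.28. The list also moved with mouse 1 of the single cells, without which its median was −0.96.

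Markers of other cells were limited in part by the rule. Goblet genes summed to 310 to 1538 CPM in pairs and 114 to 924 CPM in single cells, enteroendocrine genes to 37.0 to 88.2 and 36.7 to 113 CPM, tuft genes to 0 to 45.1 and 25.9 to 39.7 CPM, and T lymphocyte genes to 0 to 55.4 and 20.6 to 195 CPM. Erythrocyte genes reached at most 11.5 CPM, macrophage and dendritic genes 92.4 CPM, and stroma, endothelium and muscle 129 CPM. B and plasma cell genes were at 0 to 58.6 CPM in pairs and 0 to 1371 CPM in single cells, high in single cells of mice 3 and 4, the mice with plates labelled for CD45 or CD54. Paneth genes summed to 70.9 to 2476 CPM in pairs and 68.8 to 508 CPM in single cells, with a median change of 0.88 over 5 genes and 0 called. Defa2, called higher in pairs above, is a Paneth gene outside this list. Of stem and dividing genes, 3 of 28 could be tested, and Ccnd2, a cyclin, was at 18.5 to 76.3 CPM in pairs and 0 to 13.9 CPM in single cells (2.30 ± 0.64, edgeR adjusted p = 0.0940). The part of other cells in the results above was not tested.

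Changes were also ordered by the length of the transcript, a pattern looked for after the data were seen. Over the 3638 tested genes with a length in the annotation, the log2 change was lower for genes with a longer longest transcript (Spearman rho −0.45, Pearson r −0.41 with log10 length, across genes, which share libraries and depth and are not replicates). In 5 groups of equal size from short to long, the median length was 781.5, 1899, 2881, 4071 and 6609.5 bases and the median log2 change 0.40, 0.04, −0.06, −0.21 and −0.38. The share of genes above 0 was 76.0, 53.4, 43.4, 31.5 and 20.1% in the same order. Ribosomal proteins and subunits of the respiratory chain are short, and Onecut2, with a transcript of 16234 bases, is long, but Tnrc6b, with 17332 bases, lay on the side of the pairs.

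The same was seen within each sum. For each UMI of the group with the longest transcripts, and without Gm42418, mitochondrial RNA and its nuclear copies, pairs held 2.35, 2.49, 2.73, 5.34 and 3.36 UMIs of the group with the shortest, and single cells 1.08, 1.58, 2.02 and 1.61. All pairs lay above all single cells, and larger clumps, at 3.18, 3.69 and 3.38, lay with the pairs. The correlation ranged from −0.54 to −0.30 over the other settings tried except 1: with wells of at most 15% mitochondrial UMIs, 122 genes were left and rho was 0.02.

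**Figure D5:**
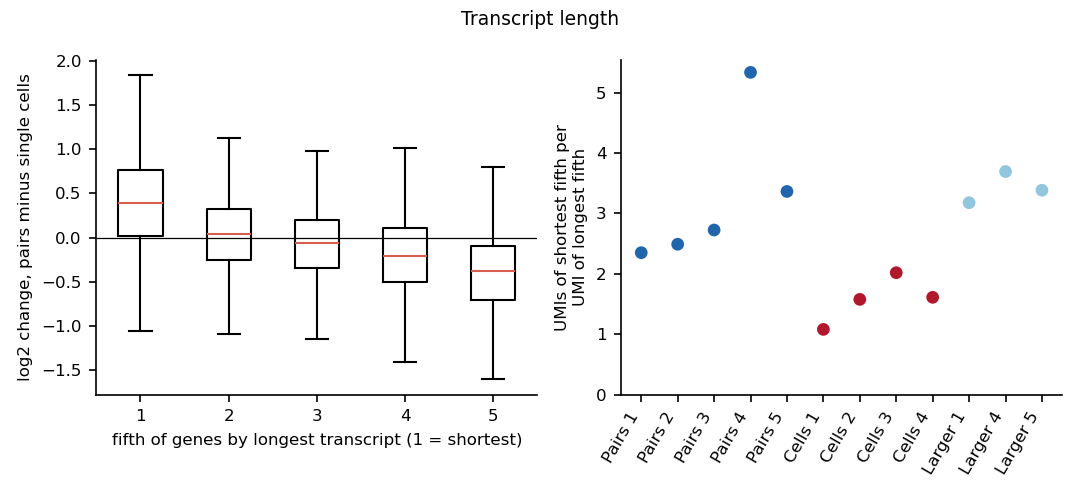
The plots of transcript length show, on the left, the log2 change of pairs minus single cells in 5 equal groups of genes from short to long (box, quartiles; line, median; whiskers, up to 1.5 times the quartile range) and, on the right, the UMIs of the shortest group per UMI of the longest group in the sum of each mouse. The median change goes from 0.40 to −0.38, and pairs hold 2.35 to 5.34 short UMIs per long UMI against 1.08 to 2.02 in single cells.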

How the data were processed

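RNA of epithelial clumps and of single cells was read with MARS-seq 2.0, a 3′ protocol in plates with UMIs. The authors deposited whole-number UMI counts per gene and well, before background subtraction, filtering or normalization, in a table of 27538 genes and 17162 wells (45 plates) for clumps and a table of 23379 genes and 16850 wells (44 plates) for single cells. The submitters' processing notes name bcl2fastq 2.15.0.4 and GRCm38, and the methods STAR through zUMIs with Ensembl gene models. The 21817 genes in both tables were used. No sample column was left unused (0), and no well of the chosen sets was identical to another. No doublet caller was run, and background was not subtracted in the main analysis since which wells were empty is not given in the sources used here.

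Counts of the chosen wells were summed per mouse, 5 sums of pairs and 4 of single cells, and tested with edgeR 4.0.16 in R 4.3.3 (filterByExpr, TMM, quasi-likelihood test, Benjamini-Hochberg adjustment, threshold 0.05). Genes of the rule and mitochondrial genes stayed in the library sizes but out of the tests. Shares of wells were compared by exact permutation over the 126 arrangements of mice (scipy 1.17.1, Python 3.11.15). Enterocyte landmarks placed each well in the crypt, mid-villus or villus tip. Gene positions, transcript lengths and sequences were taken from the GENCODE annotation and genome of GRCm38, where 25 of 26 called genes matched by symbol. The fitting code was tested on simulated data.

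The wells and the 33 gene lists, with 739 genes of which 711 were in both tables, were chosen with earlier results of these data known. Named from each list were the 2 tested genes with the lowest p and the gene with the highest mean CPM, and some of these are given by their list only. A further rule for the strongest calls asked for a mean CPM of at least 50, groups without overlap, an adjusted p below 0.05 and a plain gene name, and no gene met it, so the called genes were named after their values were seen. The same holds for Fos, the genes of the well counts and the order by transcript length. Of 29 alternatives, 23 were planned and 6 were chosen after seeing the data: mitochondrial shares of at most 15% or without a limit, pairs of mice 1 to 3 only, mitochondrial UMIs left out, plain totals, and the abundant RNAs left out.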

Additional observations from a re-analysis of the deposited data

Results flagged for a closer look

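In groups of 4 or 5 mice, 14 of 208 groups of values looked at had a highest or lowest mouse far from the rest (Dixon's test at 95%), where chance flags about 1 in 20 groups. Among called genes, Rpl13a-ps1 was at 305 CPM in pairs of mouse 5 and at 2.29 CPM in single cells of mouse 1, where the other single cells were at 0. Plb1 was at 36.9 CPM in single cells of mouse 2 and at 0 in the others. Gm10051 was at 37.0 CPM in pairs of mouse 4, below the other pairs.

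Among genes of the lists, Jup was at 0 CPM and Rpl21 at 351 CPM in pairs of mice 5 and 4, and Cyp3a11 at 506 CPM in pairs of mouse 3. Lama3 was at 128 CPM in single cells of mouse 2 and Mme at 613 CPM in those of mouse 3. The MHC genes summed to 12084 CPM in single cells of mouse 3, the goblet genes to 1538 CPM and the B and plasma cell genes to 58.6 CPM in pairs of mouse 3, and the genes of stroma, endothelium and muscle to 129 CPM in pairs of mouse 4. Single cells of mouse 1 had a median of 151.5 genes per 500 UMIs, below the other mice.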

How the results depend on the processing

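Counts of genes called are given as higher in pairs, higher in single cells and, last, in the gene lists, where the reported values were 14, 12 and 2. Settings that kept all wells gave 13, 16 and 4 with DESeq2 size factors, 10, 15 and 4 by DESeq2, 62, 36 and 12 with no filter on low counts, 12, 10 and 1 with mitochondrial UMIs left out of the fit, 249, 4 and 31 on plain totals, and 7, 5 and 0 on plain totals with Gm42418, mitochondrial RNA and its nuclear copies left out. Other limits on wells gave 14, 5 and 0 with the limits of the single cells on the pairs too, 16, 34 and 9 with over 1000 UMIs in both, 19, 41 and 14 with an apolipoprotein share of at least 2%, 8, 4 and 0 with no UMI of the markers of other cells, and 10, 12 and 2 after subtracting the background of the emptiest wells. Wells thinned to 500 UMIs gave 1, 0 and 0 with 862 genes left to test. Other sets of wells gave 10, 6 and 1 with plates labelled Epcam, 13, 12 and 2 without the plates labelled 4 months, 12, 16 and 6 at the villus tip, 4, 2 and 0 in the mid-villus, and 12, 5 and 0 with pairs of mice 1 to 3. Without each mouse in turn the counts ran from 3 to 19, from 2 to 18 and from 0 to 7. With a mitochondrial share of at most 15% only 124 genes were left to test and 0, 0 and 0 were called, while no limit on that share gave 134, 246 and 36. Fewer genes were tested in the thinned, zoned and low-mitochondrial sets, and the cause of the other differences was not tested.

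With the mouse number as a replicate block in mice 1 to 4, the counts were 33, 28 and 12. Whether equal numbers stand for the same animal could not be decided from the counts. The deviations of same-numbered sums correlated at 0.35, −0.01, −0.06 and 0.12, and 1 of 4 sums correlated best with its own number. With 4 sums of each kind, such values neither show nor exclude a shared animal.

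On plain totals the median of all genes moved from −0.06 to 0.62, and 16 of the 27 list medians turned from below to above 0, while 26 of the 27 stayed on their side of the median of all genes (the exception was sugar, amino acid and peptide transport). Single values turned too. At a mitochondrial share of at most 15% the log2 change was 0.28 for Malat1, 0.33 for Epcam, 0.0666 for Cldn7 and −0.13 for Atp5g3, against −1.74, −0.85, −0.87 and 0.57. For Fos it was 0.25 with thinned wells, 0.73 in the mid-villus, 0.020 with pairs of mice 1 to 3 and 0.48 on plain totals. The share of wells with a UMI, pairs minus single cells in percentage points, turned at 1000 UMIs, where pairs of mice 4 and 5 kept 19 and 1 wells, to −0.167 for Fos and −0.0555 for Hspa1a and in the mid-villus to 0.122 for Egr1, and for Atf3 it ran from −1.07 to 0.168 without each mouse. The cause was not tested.

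Depth limited most of all the pairs of mice 4 and 5. Alternatives on the mitochondrial share, on pairs of mice 1 to 3, on plain totals and on the abundant RNAs were chosen after seeing the data.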

Other observations

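Genes of drug and nutrient handling lay on both sides, and 0 of them were called. Cyp3a11, a cytochrome P450 that oxidizes drugs, stood at 211, 233, 506, 148 and 153 CPM in pairs of mice 1 to 5 and 215, 454, 606 and 309 CPM in single cells of mice 1 to 4 (log2 change −1.18, edgeR adjusted p = 0.126). Gstp1, which joins glutathione to reactive compounds, stood at 343, 469, 440.3, 924 and 153 CPM and 43.6, 165, 251 and 189.9 CPM (1.07, edgeR adjusted p = 0.262). Tkfc, a kinase of fructose breakdown, stood at 357, 283, 349, 388 and 458 CPM and 45.8, 133, 258 and 119 CPM, without overlap (0.80, edgeR adjusted p = 0.329). Slc6a19, the main carrier of neutral amino acids, stood at 464, 449.5, 579, 129 and 76.3 CPM and 332, 431, 571 and 624 CPM (−1.02, edgeR adjusted p = 0.244).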
